A study of Mus musculus with 6 samples.

Results

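The genes described here are 10 genes of the fibrous matrix around the brain, measured by RNA sequencing in mouse cortex at postnatal day 7. They comprise 7 genes for small leucine-rich proteoglycans, Fmod, Dcn, Lum, Bgn, Ogn, Prelp and Aspn, and 3 further genes for secreted proteins, Aebp1, Igf2 and Islr. The members were chosen by name with their normalized counts in these same libraries already known, so their differences between the genotypes are given as a description and support nothing. They are 10 of the 24972 genes in the deposited table. The study compared 3 libraries labelled wildtype, from Zmiz1f/f mice, with 3 libraries labelled Zmiz1-KO, from Zmiz1f/f;Emx1Cre mice, so the floxed Zmiz1 allele is present in both groups. Emx1Cre is expressed in the progenitors of the dorsal forebrain, and deletion is therefore expected in excitatory neurons and cortical glia and not in the meninges, the blood vessels or most interneurons. Total RNA came from whole cortex, although the labels also speak of progenitor cells, and whether each library came from 1 animal is not stated. Values are normalized counts, that is, read counts that the authors scaled between libraries with DESeq2, and their sum per library lay between 32661979 and 33239707.

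Small leucine-rich proteoglycans are secreted proteins with a curved core of leucine-rich repeats, and most carry chondroitin, dermatan or keratan sulfate chains. They bind fibrillar collagen and set how fibrils grow and pack, and several also bind growth factors or their receptors. In the brain they are made mainly by the fibroblasts of the meninges and of the perivascular space, and Igf2 is a known product of the meninges, the vessels and the choroid plexus.

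Zmiz1, the gene targeted for deletion, was higher in the libraries carrying the deletion label. Its normalized counts were 8119, 7929 and 7461 in the wildtype libraries and 9944, 9779 and 9660.2 in those labelled Zmiz1-KO, for a log2 fold change of 0.32 (SE 0.04) with a limma adjusted p of 0.00125, with all 3 libraries labelled Zmiz1-KO above all 3 wildtype libraries. A count per gene does not show which exons the reads came from, so the deletion itself was not checked here, and every direction below is one between labels. Xist, the transcript of the inactive X chromosome, was at 32.0, 57.3 and 25307 in the wildtype libraries and 12.9, 24403 and 19.1 in those labelled Zmiz1-KO. The Y-linked gene Ddx3y was at 1483, 1293 and 0.00 in the wildtype libraries and 1329, 1.89 and 1250.2 in those labelled Zmiz1-KO. Wildtype replicate 3 and replicate 2 labelled Zmiz1-KO therefore had the pattern of females and the other 4 libraries that of males.

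The tissue label was checked against cell type markers. The 12 cortical neuron markers were all measured, and their normalized counts summed to 121381, 115812 and 118861 in the wildtype libraries and 120624, 116459 and 117888 in those labelled Zmiz1-KO. The 10 progenitor markers summed to 9148, 9804 and 9331 in the wildtype libraries and 9970.3, 10309 and 9999 in those labelled Zmiz1-KO, with Vim, also a gene of astrocytes and fibroblasts, as the most abundant. In normalized counts per kb of annotated exon in wildtype (SD, n = 3), the neuron markers lay between Cux1 at 220.3 ± 7.01 and Nrgn at 16883 ± 627, and the progenitor markers between Eomes at 24.3 ± 6.32 and Vim at 619 ± 18.1, so the ranges of the 2 lists overlapped. Meningeal fibroblast markers were present in every library and none was listed at 0.

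Most of the 10 genes had higher normalized counts in the libraries labelled Zmiz1-KO. In 9 of the 10 the log2 fold change was above 0, Aspn being the exception, and in 7 (Fmod, Dcn, Ogn, Prelp, Aebp1, Igf2 and Islr) all 3 libraries labelled Zmiz1-KO lay above all 3 wildtype libraries. Over all 15800 genes tested, 1280 genes (8.1%) showed the same separation upward and 1290 (8.16%) the opposite one, and nothing is read from the members' count, since they were chosen with this contrast known. All 10 passed the filter on low values, a normalized count of at least 10 in at least 3 libraries. Their median log2 fold change was 0.27, beside -0.0002 over all genes tested. In the limma fit across all genes, 2 of the 10, Aebp1 and Fmod, were past an adjusted p of 0.05, where 65 of 15800 genes (0.411%) were called in either direction and 26 (0.165%) as higher; again nothing is read from that count. The call of Fmod was lost with limma-voom, without robust estimation and in 5 of the 6 fits that left out 1 library (all but that without wildtype replicate 3), and the call of Aebp1 was lost without replicate 3 labelled Zmiz1-KO, where 0 members were called. In whole tissue, more cells of the kind that express a gene and more RNA of it per cell cannot be told apart.

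**Figure D1:**
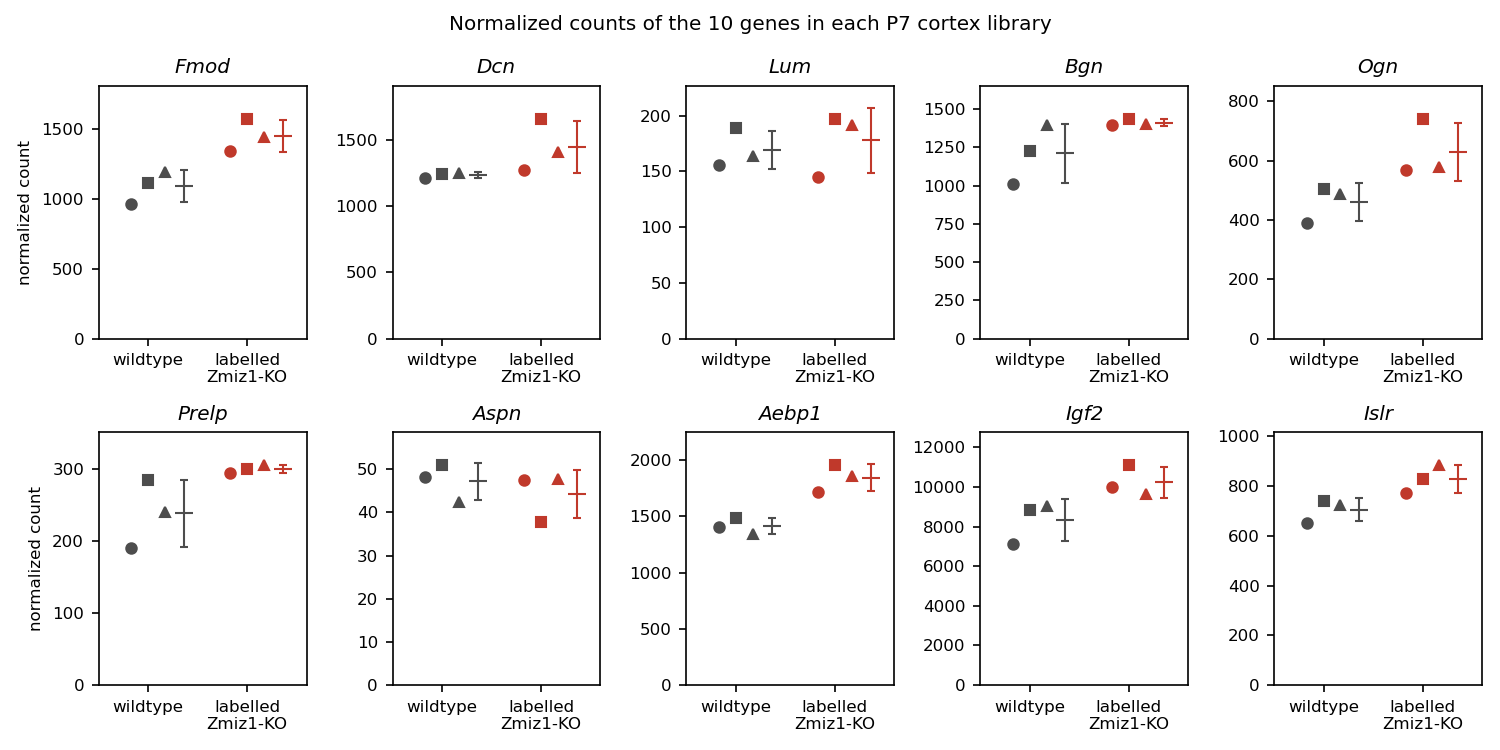
Normalized counts (vertical axes, each starting at 0) of the 10 genes in 3 wildtype libraries (grey) and 3 libraries labelled Zmiz1-KO (red), with circles, squares and triangles for replicates 1, 2 and 3 and the mean with its SD (n = 3) beside the points. The groups are apart for 7 genes and overlap for Lum, Aspn and, narrowly, Bgn.

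Decorin and biglycan are close relatives that carry chondroitin or dermatan sulfate and bind collagen fibrils and TGF-beta. Dcn was at 1208, 1243 and 1248 normalized counts in the wildtype libraries and at 1268, 1656 and 1409.9 in those labelled Zmiz1-KO, for a log2 fold change of 0.22 (SE 0.081). The wildtype libraries were nearly equal, and the lowest library labelled Zmiz1-KO stood only just above them, so the difference was carried mostly by replicate 2 of that group. Without that library the log2 fold change of Dcn was 0.12. Bgn was at 1009, 1224 and 1398 in the wildtype libraries and 1395, 1435 and 1402 in those labelled Zmiz1-KO, with a log2 fold change of 0.23 (SE 0.10). Here the libraries labelled Zmiz1-KO were nearly equal and the spread lay in wildtype, whose replicate 1 was low and whose replicate 3 reached the level of the other group. Without wildtype replicate 1 the log2 fold change of Bgn was 0.11. Bgn is X-linked, and the female-pattern library was the highest of its group in each genotype. The same held for Fmod, Dcn and Igf2, which are not X-linked, and a part of sex in these values was not tested. Among the 4 libraries with low Xist, Bgn was at 1009 and 1224 in wildtype and at 1395 and 1402 in the libraries labelled Zmiz1-KO, which do not overlap.

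Asporin is another member of that class and binds collagen and TGF-beta, but usually lacks a glycosaminoglycan chain. Aspn had the lowest level of the 10 genes, 48.3, 50.9 and 42.5 in the wildtype libraries and 47.4, 37.8 and 47.7 in those labelled Zmiz1-KO, and a log2 fold change of -0.093 (SE 0.24). The groups overlapped, and the library that was highest for most other members, replicate 2 labelled Zmiz1-KO, was the lowest for Aspn. An estimated single counted read is worth about 1.83 to 2.11 normalized counts, so each Aspn value rests on few reads, and its fold change was smaller than its error.

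Fibromodulin, lumican and PRELP belong to the class whose members can carry keratan sulfate, although PRELP has little of it and instead binds heparan sulfate and basement membranes. Fmod was at 966, 1115 and 1190.0 in the wildtype libraries and at 1341, 1573 and 1440.3 in those labelled Zmiz1-KO, means of 1090.2 ± 114 and 1451 ± 116 (SD, n = 3) and a log2 fold change of 0.41 (SE 0.08). The groups did not overlap, and the gap between them was about as wide as that between wildtype replicates 1 and 2. Lumican, which competes with fibromodulin for a site on collagen, did not share that separation over all 6 libraries. Lum was at 156, 189 and 164 in the wildtype libraries and 145, 197 and 192 in those labelled Zmiz1-KO, and its log2 fold change of 0.059 (SE 0.15) was smaller than its error. The lowest Lum value of all 6 libraries was in replicate 1 labelled Zmiz1-KO and the highest in replicate 2 of the same group. Without replicate 1 labelled Zmiz1-KO the log2 fold change of Lum was 0.201 and its groups did not overlap, and without replicate 2 of that group it was -0.021. Prelp was at 190.5, 284 and 239 in the wildtype libraries and 294, 300.1 and 304 in those labelled Zmiz1-KO, for a log2 fold change of 0.35 (SE 0.13). As for Bgn, the libraries labelled Zmiz1-KO were close together and wildtype replicate 1 stood low, and without that wildtype library the log2 fold change of Prelp was 0.20.

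Osteoglycin, also called mimecan, is a small member of another class that binds collagen and was first described in bone. Ogn was at 389, 505 and 487 in the wildtype libraries and 569, 740.5 and 578 in those labelled Zmiz1-KO, with means of 461 ± 62.8 and 629 ± 96.6 (SD, n = 3). Its log2 fold change of 0.45 (SE 0.12) was close to that of Fmod. The groups did not overlap, wildtype replicate 1 was the lowest library and replicate 2 labelled Zmiz1-KO stood well above the other libraries of its group.

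The remaining 3 genes encode secreted proteins outside the proteoglycan family. Aebp1 encodes ACLP, a collagen-binding protein that aids fibril assembly, and its normalized counts were 1407, 1486 and 1343 in the wildtype libraries and 1717, 1952 and 1862 in those labelled Zmiz1-KO. The means were 1412 ± 71.7 and 1844 ± 118 (SD, n = 3) and the log2 fold change was 0.38 (SE 0.06). Its groups were apart by more than the whole range within wildtype, and unlike the other 6 separated genes its lowest library was wildtype replicate 3 and not replicate 1. Islr encodes a secreted protein with leucine-rich repeats and an immunoglobulin domain, known as Meflin and a marker of fibroblast and mesenchymal stromal cells. Islr was at 651, 739 and 724 in the wildtype libraries and 772, 828 and 883 in those labelled Zmiz1-KO, for a log2 fold change of 0.23 (SE 0.076), with groups that did not overlap and with its highest value in replicate 3. Igf2 encodes an imprinted growth factor that signals through the receptors encoded by Igf1r and Insr and is cleared by that of Igf2r. It was at 7139.9, 8829 and 9054 in the wildtype libraries and 9980.0, 11091 and 9624 in those labelled Zmiz1-KO, means of 8341 ± 1046 and 10232 ± 765 (SD, n = 3) and a log2 fold change of 0.30 (SE 0.11). Wildtype replicate 1 stood below the other libraries, which weighs on the difference: without it the log2 fold change of Igf2 was 0.19.

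Levels can be compared between genes only per length, here as normalized counts per kb of the union of a gene's annotated exons. That union holds the exons of every annotated transcript and can be longer than the transcript in use. The order below therefore depends on the annotation. On that scale the wildtype order was led by Igf2 at 1457 ± 183 (SD, n = 3), followed by Aebp1 at 348 ± 17.7 and Fmod at 329.8 ± 34.5. Next came Islr at 262 ± 17.5, Dcn at 211 ± 3.71, Bgn at 198 ± 32.0 and Ogn at 179 ± 24.5. Lum at 69.2 ± 6.97 and Prelp at 65.8 ± 12.9 were lower, and Aspn was lowest at 20.1 ± 1.83. Within their spread over the 3 libraries, Aebp1 and Fmod, Dcn and Bgn, Bgn and Ogn, and Lum and Prelp were not distinguishable as neighbours in that order. The first 5 places were the same in the libraries labelled Zmiz1-KO, where Igf2 was at 1788 ± 134, Aebp1 at 454 ± 29.2, Fmod at 439 ± 35.2, Islr at 308 ± 20.8 and Dcn at 247 ± 33.7 per kb. Below them Ogn at 245 ± 37.6 stood beside Bgn at 231 ± 3.56, and Prelp at 82.8 ± 1.51 beside Lum at 72.6 ± 11.8, so that both pairs were in the reverse order by means, and Aspn was at 18.8 ± 2.38. Igf2 made up between 54.2% and 57.0% of the summed normalized counts of the 10 genes in each library, so a sum over them is mostly Igf2.

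Many of the 10 genes, though not Aspn, had their extremes in the same libraries. Wildtype replicate 1 was the lowest of the 6 libraries for 7 genes, and replicate 2 labelled Zmiz1-KO the highest for 7. When each gene's log2(value + 1) was centred on its mean over the 6 libraries and averaged over the 10 genes, the wildtype libraries were at -0.267, -0.028 and -0.088 and the libraries labelled Zmiz1-KO at 0.039, 0.203 and 0.14. The distance between wildtype replicates 1 and 2 was thus larger than that between wildtype replicate 2 and replicate 1 labelled Zmiz1-KO. Islr lay closest to this mean profile, with a root mean square difference of 0.0495 on the log2 scale, and Aspn farthest, at 0.251. Leaving out wildtype replicate 1 brought the members' median log2 fold change to 0.196, and leaving out wildtype replicate 3 to 0.346. With single libraries left out, between 7 and 9 members were separated, and the share over all tested genes rose to between 12.0% and 15.6%. Genes separated over all 6 libraries stay separated when a library is left out, so neither value could fall. Among the 4 libraries with low Xist, 8 of the 10 genes were higher in both libraries labelled Zmiz1-KO, where 22.5% of all tested genes were.

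Several of the family genes are neighbours in the genome, given here on GRCm38 (mm10). Fmod (chr1:134037254-134048277, plus strand) and Prelp (chr1:133910304-133921414, minus strand) lie 116 kb apart, and Optc, for opticin of the eye, is 2.3 kb beyond Prelp. Optc was at 48.3, 56.9 and 37.1 normalized counts in the wildtype libraries and 54.9, 60.8 and 66.6 in those labelled Zmiz1-KO, with overlapping groups and a limma adjusted p of 0.614. Dcn (chr10:97479609-97518143) and Lum (chr10:97565128-97572703), both on the plus strand, are 47.0 kb apart, with Kera, for the corneal keratocan, and Epyc, for the cartilage protein epiphycan, beyond Lum. Over all 6 libraries Dcn was separated between the labels and Lum, its direct neighbour, was not. Kera had 6.1, 10.6 and 10.3 in the wildtype libraries and 1.99, 1.82 and 11.9 in those labelled Zmiz1-KO, and Epyc 10.1, 21.2 and 20.4 and 21.7, 41.2 and 11.9, both too low to compare. The order on chromosome 13 is Ecm2, Aspn (chr13:49544443-49567565), Omd and Ogn (chr13:49608046-49624501), with gaps of 11.7, 14.9 and 15.2 kb. Aspn and Ogn, whose fold changes had opposite signs, thus have a single family gene between them, Omd, for osteomodulin, at 22.3, 25.5 and 26.3 in the wildtype libraries and 27.8, 56.0 and 19.8 in those labelled Zmiz1-KO. Ecm2, for a matrix protein with leucine-rich repeats, was at 64.9, 65.8 and 100.2 and 99.4, 119 and 79.8. The other 4 members are not next to a family gene: Bgn (chrX:73483602-73495933), Aebp1 (chr11:5861947-5872088), Islr (chr9:58156268-58204306) and Igf2 (chr7:142650766-142666816).

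The promoters of a few members are shown, and a link between their sequence and the values was not tested. RefSeq promoter windows on GRCm38.p6 matched 8 of the 10 members; Dcn and Lum had no entry. The 250 bases before the RefSeq start were searched on both strands for TATAAA (the TATA box), CCAAT (bound by NF-Y), GGGCGG (an Sp1 motif), TGANTCA (AP-1), CAGACA (a Smad motif) and GGAATG (a TEAD motif). The 4 windows shown are those of Fmod and Aebp1, whose differences were largest relative to their errors, and of the near neighbours Ogn and Aspn, whose fold changes had opposite signs. Capitals mark a match, in either orientation, and a window without capitals holds none.
Fmod, chr1:134037004-134037253, plus strand: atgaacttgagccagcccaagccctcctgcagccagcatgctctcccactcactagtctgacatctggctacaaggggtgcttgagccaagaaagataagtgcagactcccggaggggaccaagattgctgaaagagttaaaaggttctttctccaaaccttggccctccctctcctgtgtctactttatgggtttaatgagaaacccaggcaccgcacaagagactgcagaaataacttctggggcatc
Aebp1, chr11:5861616-5861865, plus strand: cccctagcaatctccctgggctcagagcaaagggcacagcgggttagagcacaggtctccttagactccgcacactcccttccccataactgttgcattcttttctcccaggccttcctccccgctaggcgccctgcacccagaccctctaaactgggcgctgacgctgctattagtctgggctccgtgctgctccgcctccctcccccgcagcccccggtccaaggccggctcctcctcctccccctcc
Ogn, chr13:49607765-49608014, plus strand: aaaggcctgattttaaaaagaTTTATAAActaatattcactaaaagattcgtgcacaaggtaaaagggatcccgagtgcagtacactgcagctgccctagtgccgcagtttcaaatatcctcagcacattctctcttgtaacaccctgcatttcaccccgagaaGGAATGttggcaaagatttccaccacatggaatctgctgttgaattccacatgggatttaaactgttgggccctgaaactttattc
Aspn, chr13:49544193-49544442, plus strand: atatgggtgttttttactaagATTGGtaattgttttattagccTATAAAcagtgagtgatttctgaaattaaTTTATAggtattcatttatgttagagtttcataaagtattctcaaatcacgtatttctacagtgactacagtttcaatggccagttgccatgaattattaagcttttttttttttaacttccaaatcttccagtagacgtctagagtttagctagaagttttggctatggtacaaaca
TATAAA was found for Ogn and Aspn, 2 of the 8 members, and in 12.4% of all 32851 promoter windows of this length; in Ogn a forward and a reverse match overlap. CCAAT was found for Aspn, Igf2 and Prelp (33.8% of all windows), GGGCGG for Bgn and Igf2 (32.7%), CAGACA for Igf2 and Islr (17.1%) and GGAATG for Igf2 and Ogn (12.6%). TGANTCA was in the window of 0 of the 8 members and in 6.75% of all windows. Igf2 had 4 windows, one for each annotated start, and so more room for a match. The Fmod and Aebp1 windows held none of the 6 motifs, and GC made up 51.2% of the first, 64.4% of the second, 42% of the Ogn window and 30% of the Aspn window. A match says only that these letters stand in the window.

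Some members share sequence with other genes, and the library kit does not mark the strand. Of the exonic bases of Igf2, 62.8% are also annotated to Gm49394, a gene model on the same strand that has no row in the table used here, so how reads from that stretch were assigned is not known, and the level of Igf2 is uncertain for that reason. Igf2os, antisense to Igf2, overlaps 1.7% of its exonic bases and was at 41.7, 44.1 and 59.7 in the wildtype libraries and 75.7, 73.4 and 63.3 in those labelled Zmiz1-KO. Prelp shares 9.7% of its exonic bases with the antisense gene Gm15851, and Islr 6.7% with Islr2, a neuronal gene on the same strand at 12686, 12621 and 11848 in the wildtype libraries and 12269, 12123 and 12481 in those labelled Zmiz1-KO, with a log2 fold change of -0.01. For Aspn the overlap, with Cenpp, was 0.3%. No 75-base stretch of the transcripts of Fmod, Dcn, Lum, Bgn, Ogn, Aspn or Aebp1 occurred in transcripts of another gene.

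The other small leucine-rich proteoglycan genes were mostly low in this tissue. Of 11 such genes 10 were tested and 0 were called by limma at an adjusted p of 0.05, with 0 at an unadjusted p under 0.05; limma-voom, the other tool run, called 0 genes of any pathway or marker list apart from Col1a2. Their log2 fold change was above 0 in 7 and below 0 in 3, the median was 0.19, and 0 of the 10 were separated between the labels, beside 8.1% of all tested genes upward and 8.16% downward. Over all 15800 tested genes, 65 (0.411%) were called by limma and 1733 (11%) had an unadjusted p under 0.05. The log2 fold change was above 0 in 49.9%. The counts of each list below stand beside these shares. At so low a share of calls, 0 calls in a short list are no finding about that list. Chadl, for chondroadherin-like protein, was highest per kb, at 114 ± 6.6 in wildtype and 104 ± 3.89 in the libraries labelled Zmiz1-KO (SD, n = 3), with a log2 fold change of -0.12 (SE 0.079) and an adjusted p of 0.607. Tsku, for tsukushi, had a log2 fold change of -0.13 (SE 0.15) and Podn, for podocan, one of 0.085 (SE 0.12). The higher fold changes of the list were in genes of low level.

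Collagens are the main partners of these proteoglycans, and all 15 fibrillar and fibril-associated collagen genes had a log2 fold change above 0, beside 49.9% of all tested genes. Only Col1a2, for the alpha 2 chain of type I collagen, passed the test. It was at 3921, 3929 and 4348 in the wildtype libraries and 4926, 5189 and 5059 in those labelled Zmiz1-KO, and its log2 fold change was 0.32 (SE 0.047) with a limma adjusted p of 0.00464. All 3 libraries labelled Zmiz1-KO were above all 3 wildtype libraries, with a gap wider than the range within either group; without replicate 3 of that group the adjusted p was 0.0688. Col1a1, its partner in type I collagen, was at 2091, 2535 and 2781 and 3282, 3101 and 2958, with a log2 fold change of 0.34 (SE 0.11) and an adjusted p of 0.316. Col6a1, for a beaded filament collagen that binds decorin and biglycan, had a log2 fold change of 0.25 (SE 0.054) and an adjusted p of 0.056. Col3a1 and Col5a1, which join type I collagen in mixed fibrils, had log2 fold changes of 0.087 (SE 0.068) and 0.084 (SE 0.057) and overlapping groups. The median over the list was 0.16, with 5 of 15 genes separated upward, beside 8.1% of all tested genes, and 5 at an unadjusted p under 0.05, beside 11% of all tested genes.

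The enzymes and proteins of collagen maturation and elastic fibers gave 0 limma calls among 28 tested genes (9 at an unadjusted p under 0.05, beside 11% of all tested genes), with 20 log2 fold changes above 0 and a median of 0.075. Sparc, a collagen-binding protein also made by astrocytes and vessels, had a log2 fold change of 0.15 (SE 0.05), Serpinh1, the procollagen chaperone, 0.15 (SE 0.058), Fn1, fibronectin, 0.17 (SE 0.052) and Mfap2, of microfibrils, 0.069 (SE 0.09). Adamts2, which trims the N-propeptide of procollagen, was at 409, 421 and 402 in the wildtype libraries and 531, 565 and 511 in those labelled Zmiz1-KO, with an adjusted p of 0.0598. Eln, for elastin, ran the other way, at 3142, 3055 and 2988 and 2733, 2805 and 2462, with a log2 fold change of -0.20 (SE 0.052) and an adjusted p of 0.132. For synthesis of the glycosaminoglycan chains, 27 of 28 genes were tested, 0 were called by limma (2 at an unadjusted p under 0.05), 14 had a log2 fold change above 0 and the median was 0.03. Chst1, a keratan sulfate sulfotransferase, had a log2 fold change of 0.16 (SE 0.057), B3gat3, which completes the linker of chondroitin and heparan sulfate, 0.045 (SE 0.047), Chpf, of chondroitin polymerization, 0.054 (SE 0.045) and Chst2 -0.034 (SE 0.043).

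Growth factors and receptors that these proteoglycans bind were evenly split, with 9 of 18 log2 fold changes above 0, a median of 0.0031 and 0 limma calls (4 at an unadjusted p under 0.05, beside 11% of all tested genes). Lrp1, an endocytic receptor of decorin, had a log2 fold change of 0.031 (SE 0.033), Kdr, the VEGF receptor, -0.042 (SE 0.058), and Met, the HGF receptor, -0.19 (SE 0.08). Tgfbr1, for the type I TGF-beta receptor, was at 1684, 1414 and 1488 in the wildtype libraries and 1201, 1339.7 and 1316 in those labelled Zmiz1-KO, with separated groups but an adjusted p of 0.168. The insulin-like growth factor pathway also gave 0 limma calls among 18 genes (4 at an unadjusted p under 0.05, beside 11% of all tested genes), with a median of 0.021 and 9 log2 fold changes above 0. The binding proteins with the highest levels, Igfbp5, Igfbp2, Igfbp4 and Igfbp7, had log2 fold changes of -0.069, -0.086, 0.13 and 0.066. Igfbp6, whose product binds IGF2 in preference to IGF1, had the largest fold change of that list, with 66.9, 75.5 and 86.8 in the wildtype libraries and 135, 109 and 135 in those labelled Zmiz1-KO, and did not pass the test (adjusted p 0.123). H19, the imprinted neighbour of Igf2 expressed from the other parental copy, was at 725, 921 and 939.7 and 872, 1255 and 987, with overlapping groups and, as for Igf2, its lowest value in wildtype replicate 1 and its highest in replicate 2 labelled Zmiz1-KO.

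**Figure D2:**
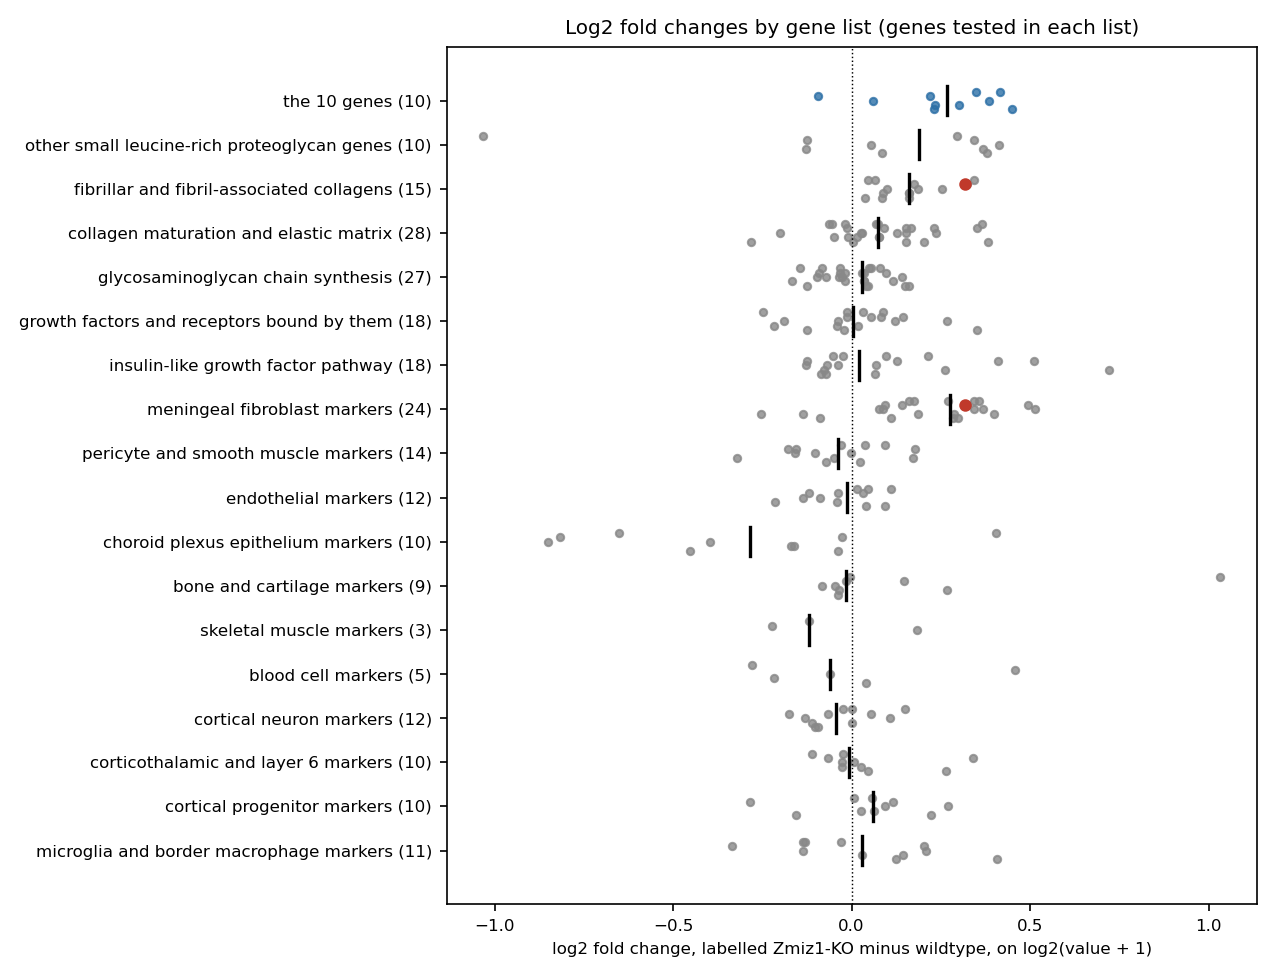
Log2 fold change on log2(value + 1), libraries labelled Zmiz1-KO minus wildtype (horizontal axis), of each tested gene in the 10 genes (blue) and in the pathway and marker lists (grey), with list sizes in brackets, black bars for medians, a dotted line for the median of all tested genes and red points for the only listed gene past the test, Col1a2, which stands in 2 lists. The 10 genes, the collagens and the meningeal fibroblast markers have medians of 0.27, 0.16 and 0.28.

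Most markers of meningeal fibroblasts also had a log2 fold change above 0, and their part in the members' difference was not tested. All 24 were tested, 21 had a log2 fold change above 0, 10 were separated upward, beside 8.1% of all tested genes, and 1, Pdgfra, downward, and the median was 0.28; 1 gene, Col1a2, was called by limma, and 12 had an unadjusted p under 0.05, beside 11% of all tested genes. Summed over the list, normalized counts were 31404, 34839 and 35990.4 in the wildtype libraries and 39773, 42224 and 40174 in those labelled Zmiz1-KO, and without Ptgds, the most abundant, 24109, 24960.3 and 26073 and 27717, 28894 and 27258. Ptgds, for prostaglandin D synthase of the arachnoid, was at 7295, 9879 and 9918 in the wildtype libraries and 12056, 13329.7 and 12917 in those labelled Zmiz1-KO, with a log2 fold change of 0.51 (SE 0.15) and an adjusted p of 0.353. Nov, also expressed by cortical neurons, had a log2 fold change of 0.092 (SE 0.041), and Pdgfra, which marks oligodendrocyte precursors as well as fibroblasts, one of -0.13 (SE 0.046). The other markers below 0 were Ngfr, at -0.25 (SE 0.15), and S100a6, at -0.089 (SE 0.11), both with overlapping groups. Centred and averaged as above, the list was at -0.184, -0.093 and -0.044 in wildtype and at 0.078, 0.154 and 0.09 in the libraries labelled Zmiz1-KO. Its lowest and highest libraries were those of the members.

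**Figure D3:**
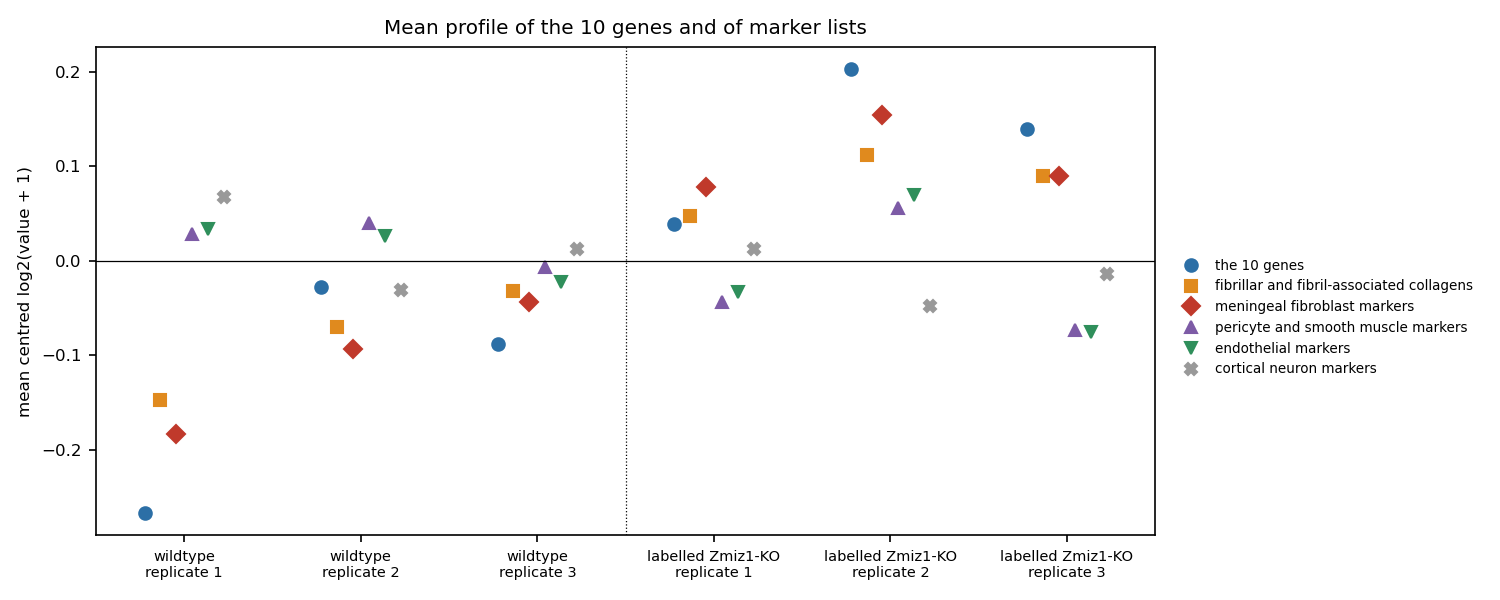
Mean over the genes of a list of log2(value + 1), centred on each gene's mean over the 6 libraries (vertical axis), for 3 wildtype libraries (left) and 3 libraries labelled Zmiz1-KO (right); points are offset sideways by list. The 10 genes run from -0.267 in wildtype replicate 1 to 0.203 in replicate 2 labelled Zmiz1-KO, the collagens and meningeal fibroblast markers have the same lowest and highest libraries, and the pericyte, endothelial and neuron markers stay within 0.1 of 0.

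Markers of vessel cells and of cortical neurons had medians near 0. Pericyte and smooth muscle markers had a median log2 fold change of -0.039 with 5 of 14 above 0 and 0 called by limma (2 at an unadjusted p under 0.05), and their sum, led by Rgs5, was 10880.3, 12048 and 11962 in the wildtype libraries and 11920.3, 11278 and 11308 in those labelled Zmiz1-KO. Vtn, Pdgfrb and Notch3 had log2 fold changes of 0.18, 0.094 and 0.036, and Rgs5 one of -0.15. Endothelial markers had a median of -0.013 with 6 of 12 above 0 and 0 called by limma (1 at an unadjusted p under 0.05); their sum, led by Cldn5, was 10002, 9981 and 9829 and 9793, 10437 and 9848. Cldn5, Cdh5, Esam and Egfl7 had log2 fold changes of 0.11, 0.095, 0.045 and 0.031. For the 12 cortical neuron markers, led by Camk2a, the median was -0.045 with 4 above 0 and 0 called by limma (4 at an unadjusted p under 0.05, beside 11% of all tested genes), and Nrgn and Camk2a had log2 fold changes of -0.024 and 0.053. For the 10 corticothalamic and layer 6 markers, led by Crym, the median was -0.0085 with 5 above 0 and 1 separated upward. For the 10 progenitor markers the median was 0.061 with 8 above 0 and 3 separated upward, beside 8.1% of all tested genes. In each of the last 2 lists limma called 0 genes, with 2 at an unadjusted p under 0.05. Sox2, of progenitors, had a log2 fold change of 0.27 (SE 0.073) and groups that overlapped narrowly. Crym, Rprm and Hs3st4, of layer 6, had log2 fold changes of 0.047, -0.065 and 0.0071. The 2 layer 6 genes at that unadjusted p were Foxp2 and Ctgf. Their log2 fold changes were 0.34 (SE 0.12), with groups that did not overlap, and 0.26 (SE 0.093), with groups that did.

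Microglia and border macrophage markers, led by Csf1r, had 6 of 11 log2 fold changes above 0, a median of 0.03, 0 limma calls (2 at an unadjusted p under 0.05) and sums of 4522, 4480.4 and 4471 in the wildtype libraries and 4417, 4638 and 4546 in those labelled Zmiz1-KO. The 2 genes at that unadjusted p were P2ry12, of microglia, and F13a1, of border macrophages, with opposite signs. F13a1 was at 276, 216 and 288 in the wildtype libraries and 332, 325 and 372 in those labelled Zmiz1-KO, with groups that did not overlap. Mrc1, of macrophages in the meninges and around vessels, was at 648, 580.2 and 735 and 658, 830.0 and 771. The microglial genes P2ry12 and Cx3cr1 had log2 fold changes of -0.33 (SE 0.10) and -0.14 (SE 0.078). For P2ry12 the groups did not overlap either, with every library labelled Zmiz1-KO below every wildtype library. Of the 230 genes tested in all pathway and marker lists together, 1, Col1a2, was called by limma, beside 65 of all 15800 tested genes (0.411%). Nothing is read from that count.

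Choroid plexus, which can stay attached to a dissected cortex, differed between libraries far more than between labels. Ttr, for transthyretin, was at 98.8, 7728 and 5871 in the wildtype libraries and 2874, 89.8 and 4468 in those labelled Zmiz1-KO, and the sum over 10 markers, of which it is the most abundant, was 2528, 11166 and 9097 and 5520.1, 2393 and 7387. In 9 of the 10 markers the log2 fold change was below 0, with 0 limma calls and 0 at an unadjusted p under 0.05. Low Ttr occurred in wildtype replicate 1, where 7 members were lowest, and in replicate 2 labelled Zmiz1-KO, where 7 members were highest. Igf2 was at 7139.9 and 11091 in these 2 libraries. The part of these markers in the members' values was not tested.

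Bone, muscle and blood could enter with the skull or the vessels. Bone and cartilage markers, led by Sox9, which astrocytes also express, were tested for 9 of 12 genes with 3 above 0, a median of -0.017 and 0 limma calls (1 at an unadjusted p under 0.05), with sums of 2054, 1981 and 1945 in the wildtype libraries and 2105, 2028 and 1935 in those labelled Zmiz1-KO; Bglap and Matn3 were listed at 0 in some libraries. Ibsp, for bone sialoprotein, was at 8.09, 8.46 and 10.3 in the wildtype libraries and 89.4, 7.32 and 10.0 in those labelled Zmiz1-KO, so 1 library stood apart. Skeletal muscle markers passed the filter in 3 of 10 genes, with 0 limma calls, 0 at an unadjusted p under 0.05, and sums of 620.1, 574 and 629 and 605, 593 and 570.1, led by Myh8, while Tnnt3, Tnnc2, Myl1, Myod1 and Myog were listed at 0 in some libraries. Blood cell markers passed it in 5 of 8, also with 0 limma calls and 0 at an unadjusted p under 0.05, and sums, led by Hba-a1, of 9081, 8393 and 12217 and 8747, 9140.5 and 8066.

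Among 12773 other tested genes with a mean normalized count of at least 100, the 6 whose centred profile over the 6 libraries was most like the members' mean profile were C1ql1, Pde1b, Efemp1, F3, Pik3r3 and Bmp6, with root mean square differences from 0.0209 to 0.0431 on the log2 scale, where the median over the genes compared was 0.174. Efemp1 encodes the matrix protein fibulin-3 and Bmp6 a signaling protein of the TGF-beta family, both made by meningeal fibroblasts, whereas C1ql1 encodes a secreted synaptic organizer of neurons. Efemp1 was at 146, 169 and 169 in the wildtype libraries and 180.4, 216 and 202 in those labelled Zmiz1-KO, and Bmp6 at 430.0, 534 and 529 and 557, 623 and 569. C1ql1, the closest, was at 291, 341 and 320.1 and 349.7, 403 and 373. Pde1b, a phosphodiesterase abundant in striatal neurons, was at 3798, 4189.8 and 4146 and 4675, 4929.9 and 4981. F3 encodes tissue factor, which starts coagulation and is made by astrocytes, and Pik3r3 a regulatory subunit of phosphoinositide 3-kinase. These genes were selected for their likeness over the same libraries, so their differences between the labels are not a separate result.

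With 3 libraries against 3, an exact permutation test of a single gene cannot go below p = 0.1, so calls rest on the limma fit across all genes.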

How the data were processed

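Per the labels, total RNA from cortex at postnatal day 7 was made into libraries with a TruSeq kit that does not mark strand. STAR alignment to mm10, counting per gene and DESeq2 normalization were done by the authors, and the deposited signal values, here called normalized counts, fill a table with 1 column for each of 6 libraries. Low values are close to multiples of one step per library, 1.83 to 2.11 (92.2% to 94.3% within 0.1 of a whole number) but high values are not (19.4% to 20.2%), so whole reads were not recovered and no count test was run. Sums divided by the step give an estimate of 15511300 to 17812677 counted reads per library.

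Of 24972 genes, 15800 reached 10 in at least 3 libraries and were tested on log2(value + 1) with limma (version 3.58.1, R version 4.3.3; trend and robust estimation), without covariates, two-sided, with Benjamini-Hochberg adjustment over all tested genes and a threshold of 0.05. Fold changes on this scale understate those of low genes. The study counts cortical samples without saying whether each came from its own animal, so p-values measure the spread between these libraries, which may be technical. The procedure was tested on simulated data. The members and lists were chosen with earlier results of these data known. Named genes are Zmiz1, Xist, Ddx3y, the members, listed genes past the threshold, 5 neighbouring family genes and the 6 genes most like the members. From each list up to 4 more with the highest value per kb are named. Nov and Ctgf, without a length, were placed by their counts. Adamts2, Eln, Igfbp6, H19, F13a1, Foxp2, Ngfr, S100a6, Ibsp, Islr2, Igf2os, Cenpp, Cux1, Eomes and the genes listed at 0 were added after their values were seen. Which blood cell markers were listed at 0 is not reported here. Exon lengths, overlaps and positions are from GENCODE M21 on GRCm38, and Nov and Ctgf had no match there; promoters are from RefSeq. The motifs were chosen after the data were seen. Plots were made in Python 3.11.15 with matplotlib 3.10.9.

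Alternatives were median-ratio and upper-quartile scaling, pseudocounts of 0.1 and 10, no filter, a minimum of 10 required of every library, limma-voom, estimation without robustness, Xist as a covariate, the replicate number as a block, each library left out and an adjusted p of 0.1. The fit on the 4 libraries with low Xist, and the counts of called and of separated members under the alternatives, were added after the data were seen.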

Additional observations from a re-analysis of the deposited data

How the results depend on the processing

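The number of genes called across the whole table, 65, lay between 56 and 72 under both scalings, both pseudocounts, both filters, limma-voom and the Xist covariate. It was 17 without robust estimation, 106 at an adjusted p of 0.1 and between 12 (without replicate 3 labelled Zmiz1-KO) and 152 (without replicate 2 labelled Zmiz1-KO) with 1 library left out. The pathway and marker lists held 1 called gene. They held 2 with upper-quartile scaling, with a minimum of 10 required of every library and with the Xist covariate, 4 at an adjusted p of 0.1, and between 0 and 3 with 1 library left out. For Col1a2 the adjusted p was above 0.05 only without replicate 3 labelled Zmiz1-KO, at 0.0688, among 17 alternatives that gave from 0.000957 to 0.0688. Of the members 2 were called, against 1 with limma-voom, 1 without robust estimation, 3 with the Xist covariate, and between 0 (without replicate 3 labelled Zmiz1-KO) and 2 with 1 library left out; Fmod was lost in 7 of 16 alternatives and Aebp1 in 1. The cause of these changes was not tested. The members' median log2 fold change stayed within 1 SD between replicates (0.103) under the 16 alternatives that give it a value. It ran from 0.196 to 0.346 and was the same in 5. Among these 5 are both filters and the replicate block. These could not change it, since all members passed each filter and the blocks are balanced between the labels. No called member changed sign. Lum, near 0, was below 0 in 3 of 16 and Aspn above 0 in 1. The count of separated members lay between 7 and 9, with 12.0% to 15.6% of all tested genes separated upward when 1 library was left out. Leaving out a library cannot undo a separation, so this count could not fall below 7 and its lower end shows no stability.

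Under a block for the replicate number, 168 genes were called across the table, 9 in the pathway and marker lists and 3 members. The members' median log2 fold change stayed at 0.267, as it had to, since each block pairs a wildtype library with a library labelled Zmiz1-KO. Libraries of the same number did not deviate together (correlations across genes of -0.005, -0.113 and -0.006), and not every library correlated best with its own number, so the numbers were not taken as a pairing.

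With an estimated 15511300 to 17812677 reads per library and 3 libraries per group, genes at the level of Aspn, Kera or Epyc have larger errors than the better measured members.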
